A study of Mus musculus with 10 samples.

Results

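Gene expression in cultured mouse muscle cells carrying mutant PABPN1 was compared with that in cells carrying wild type PABPN1 at a low level. The comparison takes in 6 of the 8 distinct arrays of the study, which stand for 6 of the 10 deposited samples because the same pair of arrays was deposited with each of the raw tables. The WTD group consisted of 3 arrays of cultures labelled as having a low level of wild type PABPN1-FLAG. The D7E group consisted of 3 arrays of cultures with mutant PABPN1-FLAG whose level is labelled as near that of WTA. The WTA group, 2 arrays of cultures with wild type PABPN1-FLAG and no remark on its level, entered the normalization and is given beside the results as values with no test. All cultures were of the IM2 mouse muscle cell line, were brought to confluence as myoblasts, were kept under fusion conditions for 4 days and received no other treatment. The FLAG tag is therefore common to all groups. The labels name neither the mutation, the promoter that drives the transgene, nor the number of clones behind each line. Nor do they tell if a group's arrays came from different cultures, and the p-values then cover array-to-array spread alone, possibly of technical origin.

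PABPN1 is the nuclear poly(A)-binding protein. It coats the growing poly(A) tail, stimulates poly(A) polymerase, limits tail length, and acts in the choice of polyadenylation sites and in the turnover of nuclear RNA. Expansion of a short alanine stretch near its N terminus causes oculopharyngeal muscular dystrophy, a late-onset disease of the eyelid, pharyngeal and proximal limb muscles in which the protein aggregates in muscle nuclei. Muscle cells with expanded PABPN1 and muscle cells with reduced PABPN1 have both been used to study the disease.

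The WTD arrays were deposited in another probe order than the D7E arrays, and the order was restored through the shared WTA arrays. As deposited, WTD and D7E signals had rank correlations of -0.0134 to 0.000126 across 45281 probes. After restoring they had 0.730 to 0.797, beside 0.760 to 0.780 between WTA and D7E. Every WTD value below rests on this step. The detection p-values deposited for WTD replicates 1 and 3 matched the signals of neither array and were replaced by estimates. WTD arrays had 13653 to 17565 detected probes and D7E arrays 15656 to 16459. These counts mix 2 measures, since 16241 and 17565, of WTD replicates 1 and 3, rest on the estimates and the others on deposited p-values. By the estimates WTD replicate 2 had 14782 and the D7E arrays 16750 to 17031. The D7E arrays were brighter, with a highest signal of 42999 to 45247 against 21459 to 32842 in WTD. Brightness thus goes with the group, and its part in the results was not tested. The number of arrays limits the precision.

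The WTD arrays did not form a tight group. The normalized log2 intensities of WTD replicate 3 correlated with those of D7E replicates 1, 2 and 3 at 0.989, 0.989 and 0.983, and with those of WTD replicates 1 and 2 at 0.985 and 0.976. WTD replicate 1 had 0.984 with WTD replicate 2 and 0.985, 0.986 and 0.982 with the D7E arrays. WTD replicate 2 had the lowest of all correlations with D7E, at 0.976 to 0.979, and the lowest array quality weight, 0.534, beside 0.555 for WTD replicate 3. On the first principal component, which held 29.4% of the variance, WTD replicates 1 and 2 lay at 17.9 and 36.4, WTD replicate 3 at -4.59 and the D7E arrays between -8.02 and 1.36. D7E replicate 3 lay apart to a lesser degree, with correlations of 0.986 and 0.987 with the other D7E arrays, which had 0.993 with each other. The labels do not tell WTD replicate 3 from the other WTD arrays, and whether its culture was as labelled was not tested. Every difference over 6 arrays includes it. Since leaving it out gave more calls than leaving out any other array, values without it are given beside the calls and several of the list medians. Because the array was picked by this outcome, p-values without it do not hold their nominal error rate. They are given as descriptions throughout. Both groups carried the muscle program. All 13 differentiated myotube markers on the arrays, among them Acta1, Ckm, Des, Myog and Ryr1, were detected on all 6 arrays. Their mean level was 12.68 to 12.90 on the WTD arrays and 12.72 to 12.80 on the D7E arrays. Myh3 and Mki67 were not measured here.

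Pabpn1 itself did not separate the groups. Its single probe read 10.24, 10.26 and 9.87 in WTD, 9.16, 9.58 and 10.58 in D7E, and 9.24 and 9.18 in WTA, all as normalized log2 intensities. D7E replicate 3 was the highest of the 8 arrays and D7E replicate 1 the lowest, so the groups overlapped. The difference, D7E minus WTD, was -0.35 ± 0.29 (SE, n = 3 per group; limma adjusted p = 0.788). The WTD arrays lay above both WTA arrays although their label gives a low level. Whether the probe reads the introduced transcript or only the cell's own was not checked, since probe sequences were not used here. In the plot of selected genes Pabpn1 stands beside 5 genes that are taken up below.

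**Figure D1:**
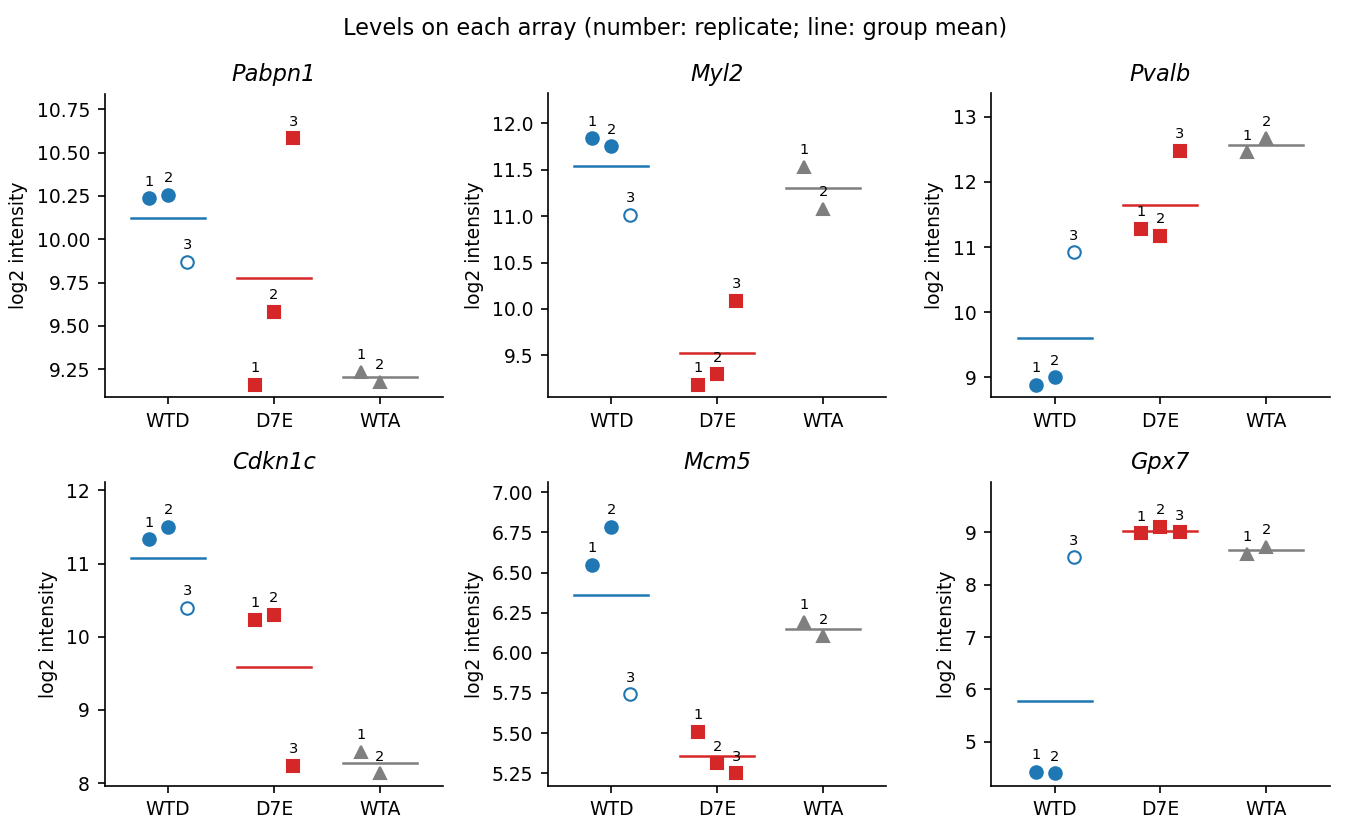
Normalized log2 intensity (vertical axis, a separate scale in each panel) of 6 genes on each WTD, D7E and WTA array. Points are single arrays with their replicate number, the open circle is WTD replicate 3, and lines are group means. Pabpn1 overlaps between WTD and D7E, while Myl2, Pvalb, Cdkn1c, Mcm5 and Gpx7 do not.

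A single gene differed between D7E and WTD past the threshold. Of 17655 probes tested, 1 (0.00566%) had a limma adjusted p under 0.05, and 1472 had an unadjusted p under 0.05 (8.34%), 825 of them higher in D7E (4.67%) and 647 lower (3.66%). The called probe belongs to Irx2, which encodes an Iroquois homeobox transcription factor used in patterning of the embryo. The other of the 2 kept Irx2 probes pointed the same way and did not pass the threshold. Irx2 read 6.38, 6.39 and 5.59 in WTD and 4.29, 4.41 and 4.19 in D7E. No D7E array was above background, and all 3 WTD arrays were, so Irx2 fell to a level with only an upper bound. The fitted difference was -1.82 ± 0.21 on the log2 scale (SE; limma adjusted p = 0.0406), and against that bound Irx2 was at least 3.08-fold lower in D7E. WTA read 4.69 and 4.40, close to D7E. The call was lost without any of the arrays other than WTD replicate 3, with adjusted p of 0.107 to 0.351, and without WTD replicate 3 Irx2 was at least 3.70-fold lower (limma adjusted p = 0.000763).

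The promoter of Irx2, the called gene, is shown as the sequence context of the only call. RefSeq (GRCm38.p6) places the window, 250 bases before to 50 after the start of the transcript, at chr13:72628570-72628869 on the plus strand. It holds 25 CpG dinucleotides, against a median of 7 over 32851 mouse promoter windows of the same length, and a GC content of 69.0%. Capitals mark the CCAAT box, searched as CCAAT on both strands and present in 37.4% of the windows. The window holds no TATAAA, which 13.6% of the windows hold.
Irx2 promoter: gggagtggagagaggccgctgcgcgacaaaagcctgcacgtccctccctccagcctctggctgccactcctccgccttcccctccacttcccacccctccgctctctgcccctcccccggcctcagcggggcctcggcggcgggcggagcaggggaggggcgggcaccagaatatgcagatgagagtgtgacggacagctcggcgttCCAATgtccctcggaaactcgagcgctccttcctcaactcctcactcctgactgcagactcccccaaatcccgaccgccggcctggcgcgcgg

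Among the 15 top-ranked genes lower in D7E, 14 did not pass the threshold with all arrays. Their adjusted p ran from 0.071 to 0.205 (limma). Ordered by role, they included a muscle light chain, genes of DNA replication and cell division, histone genes and several genes near the detection limit. In none of the 15 did the WTD and D7E arrays overlap, a property that chose them and that 7.77% of all 10241 genes had in this direction (7.43% in the other). WTD replicate 3 was the WTD array nearest to D7E for all 15, and without it 14 of the 15, all but Cdk1, had an adjusted p under 0.05 (0.273% of all genes, lower in D7E). The 15 were chosen by small p on the same arrays, and leaving out the nearest array widens each difference by construction. The count of 14 is therefore a description and not a test. The WTA level was nearer to D7E for 5 of them (Irx2, Taf9b, Kcnc4, Spint1 and Ctsw) and nearer to WTD for the other 10.

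Myl2, the regulatory light chain of slow and cardiac muscle myosin, had the largest difference among them. It read 11.84, 11.75 and 11.01 in WTD and 9.18, 9.30 and 10.09 in D7E, with WTA at 11.53 and 11.08. D7E was the low group, and WTD replicate 3 and D7E replicate 3 were the arrays nearest to each other. The difference was -2.01 ± 0.27 (SE; limma adjusted p = 0.071), and -2.27 without WTD replicate 3 (adjusted p = 0.00743). Its RefSeq promoter window, chr5:122092474-122092773 on the plus strand, is the first of 2 listed for the gene. It is shown as the muscle gene with the largest difference, with its E-boxes (CANNTG, the same on both strands), the core of sites that myogenic basic helix-loop-helix factors bind, in capitals. Such a match stands in 72.3% of all windows, and this one holds 2 of them, 1 CpG and no TATAAA.
Myl2 promoter: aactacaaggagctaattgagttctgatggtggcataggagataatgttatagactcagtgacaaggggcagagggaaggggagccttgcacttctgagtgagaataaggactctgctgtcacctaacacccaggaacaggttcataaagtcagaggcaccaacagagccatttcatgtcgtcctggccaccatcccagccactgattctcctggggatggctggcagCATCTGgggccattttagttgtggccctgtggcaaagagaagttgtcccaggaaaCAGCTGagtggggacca

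Transcripts near the detection limit made up another share of these genes. Taf9b, a subunit variant of the general transcription factor TFIID with a role in neuronal gene expression, read 6.41, 6.21 and 5.27 in WTD and 4.17, 4.21 and 4.28 in D7E. It was not above background on any D7E or WTA array, which gives at least 2.77-fold lower in D7E than in WTD (limma adjusted p = 0.0795). Spint1, a membrane-bound inhibitor of serine proteases, was at least 1.83-fold lower (adjusted p = 0.176), and Krt12, a keratin of the cornea, at least 1.56-fold lower (adjusted p = 0.186). Kcnc4, a voltage-gated potassium channel, read 6.94, 7.20 and 6.16 in WTD, 5.31, 5.19 and 4.95 in D7E, and 4.74 and 4.57 in WTA. Ctsw, a cysteine protease of the papain family, read 7.58, 7.92 and 6.93 in WTD and 6.37, 6.32 and 6.07 in D7E. Both had higher levels in WTD than in either other group. Tceal5, a member of the transcription elongation factor A-like family, was bright in all groups, at 10.58, 10.78 and 10.19 in WTD, 9.24, 9.0 and 8.37 in D7E, and 9.98 and 10.05 in WTA. Igf2bp3, an RNA-binding protein of fetal tissues that binds Igf2 mRNA, was lower by 1.15 ± 0.22 (SE; adjusted p = 0.197).

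**Figure D2:**
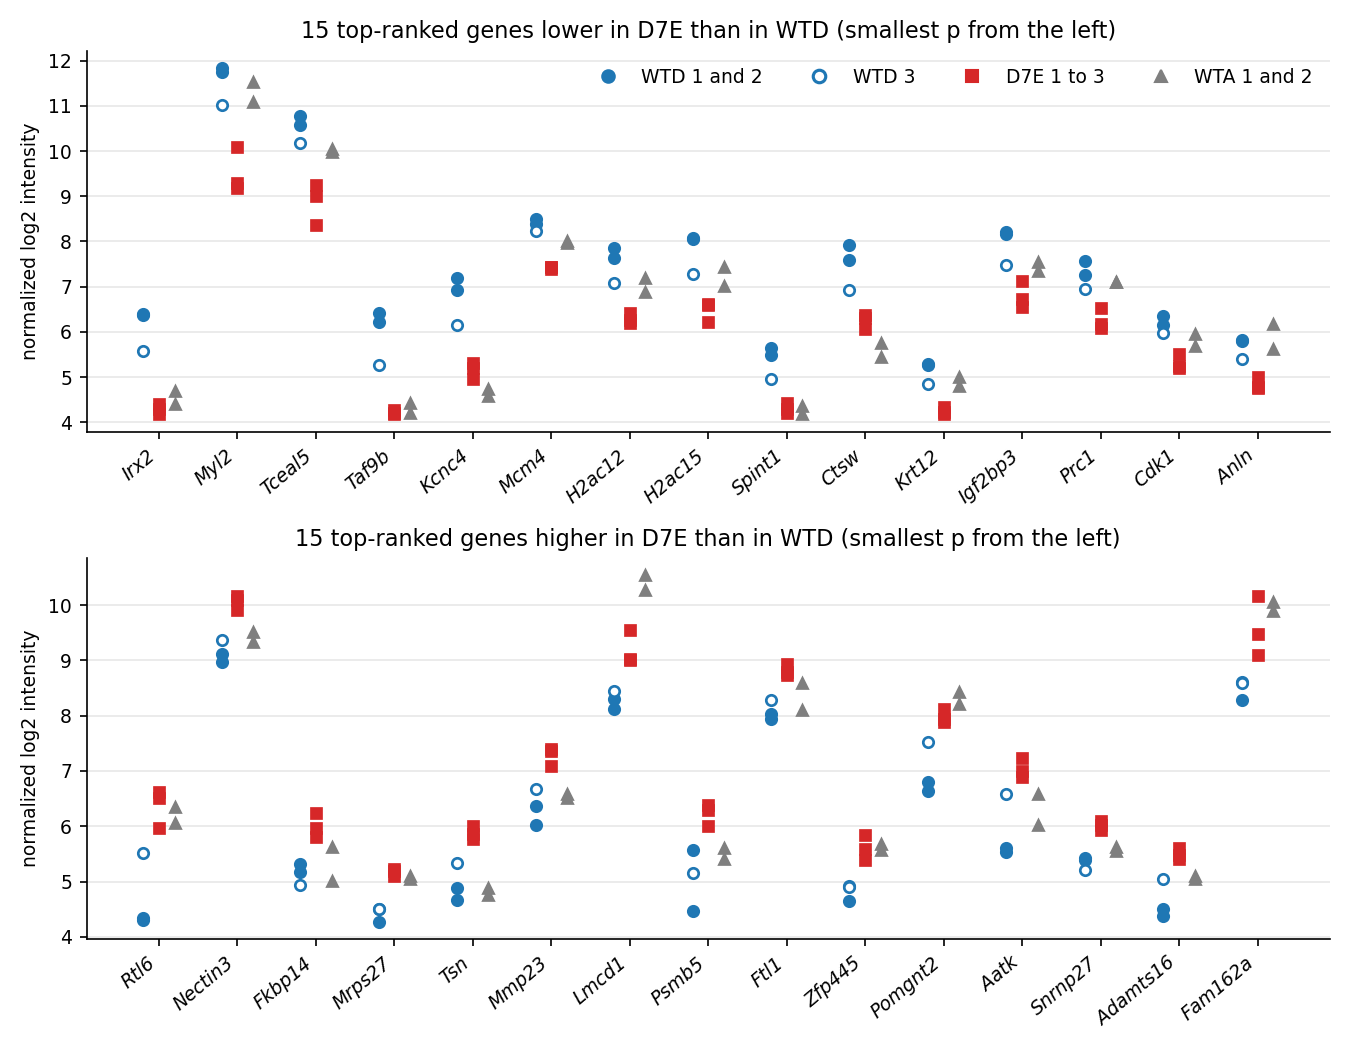
Normalized log2 intensity (vertical axes) of the 15 top-ranked genes lower in D7E (upper panel) and higher in D7E (lower panel), with 1 point per array. Filled circles are WTD replicates 1 and 2, open circles WTD replicate 3, squares D7E and triangles WTA. The open circle is the WTD point nearest to the squares for all 15 genes of the upper panel.

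None of the 15 top-ranked genes higher in D7E passed the threshold, with adjusted p of 0.176 to 0.259 (limma). Rtl6, a gene derived from a retrotransposon gag sequence, had the largest difference of them. It read 4.30, 4.34 and 5.52 in WTD and 6.63, 6.50 and 5.97 in D7E, and it was detected on 1 of the 3 WTD arrays. WTA read 6.06 and 6.35, on the D7E side. The fitted difference was 1.65 ± 0.30 (SE; adjusted p = 0.176). WTD replicates 1 and 2 were not above background, and without WTD replicate 3 Rtl6 was at least 3.45-fold higher in D7E (limma adjusted p = 0.00579). WTD replicate 3 was the WTD array nearest to D7E for 10 of the 15. Of the 15 genes, 7 had an adjusted p under 0.05 without that array (0.205% of all genes, higher in D7E). These 15 too were chosen by small p on the same arrays, so the count of 7 is a description and not a test. The WTA level was nearer to D7E for 6 and nearer to WTD for 9.

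Several of these genes act at the cell surface, in the secretory route or in the matrix. Nectin3, a cell adhesion molecule of adherens junctions, read 9.12, 8.97 and 9.37 in WTD and 10.09, 9.91 and 10.17 in D7E, with WTA at 9.51 and 9.33. Both other groups lay below D7E. Fkbp14, a prolyl isomerase of the endoplasmic reticulum, was higher by 0.87 ± 0.17 (SE; adjusted p = 0.205). Mmp23, a matrix metalloproteinase, was higher by 0.92 ± 0.19, and Adamts16, a secreted metalloproteinase, by 0.86 ± 0.19. Pomgnt2, which extends the sugar chain through which dystroglycan binds laminin, read 6.81, 6.63 and 7.52 in WTD, 7.88, 7.93 and 8.12 in D7E, and 8.44 and 8.20 in WTA. The WTD arrays were the low ones in this gene.

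Others act on RNA, protein turnover or signalling. Snrnp27, a component of the U4/U6.U5 small nuclear ribonucleoprotein of the spliceosome, read 5.43, 5.39 and 5.21 in WTD and 6.03, 5.94 and 6.10 in D7E. Tsn, the nucleic acid-binding protein translin, was higher by 0.92 ± 0.19 on its brighter probe, while the other of its 2 kept probes pointed the other way. Psmb5, a catalytic subunit of the proteasome, read 5.58, 4.46 and 5.16 in WTD, and 6.39, 6.0 and 6.29 in D7E. WTD replicate 2 was not above background, and the WTD arrays spread more than the D7E arrays. Ftl1, the ferritin light chain, was higher by 0.73 ± 0.16, Zfp445, a zinc finger protein that binds imprinting control regions, by 0.78 ± 0.17, and Aatk, a membrane-anchored kinase, by 1.14 ± 0.25. Lmcd1, a LIM-domain cofactor of muscle, was higher by 0.90 ± 0.19 but highest in WTA, at 10.54 and 10.28 against 9.03, 9.0 and 9.55 in D7E.

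Leaving out WTD replicate 3 gave 69 probes past the threshold, 30 higher in D7E (0.17% of probes) and 39 lower (0.221%). The fit behind these calls left out WTD replicate 3, while the normalization and the filter on dim probes had used it. That array was picked by the number of calls, so these calls and their p-values are descriptions. Since the probes were chosen for a wide gap between WTD replicates 1 and 2 and D7E, the place of the remaining WTD array at them is given as a description. It lay between the other WTD arrays and all D7E arrays at 58 of the 69 probes, and at 6.76% of all kept probes. On a scale on which the mean of WTD replicates 1 and 2 is 0% and the mean of D7E is 100%, its median position was 63.2%, with quartiles of 48.9% and 80.7% and a range of 21.3% to 165%. It was nearer to D7E than to the other WTD arrays at 49 of the 69, beside 59.9% of all kept probes. On the linear scale the median position was 63.0%. The WTA level was nearer to D7E at 48 and nearer to WTD replicates 1 and 2 at 21, beside 59.2% of all kept probes nearer to D7E. At 14 of the 69 no array of a group was above background, WTD replicates 1 and 2 at 8 and D7E at 6, so that only a bound holds there. Of the 69 probes, 1, that of Irx2, was called with all 6 arrays, and all 69 had the same direction there.

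**Figure D3:**
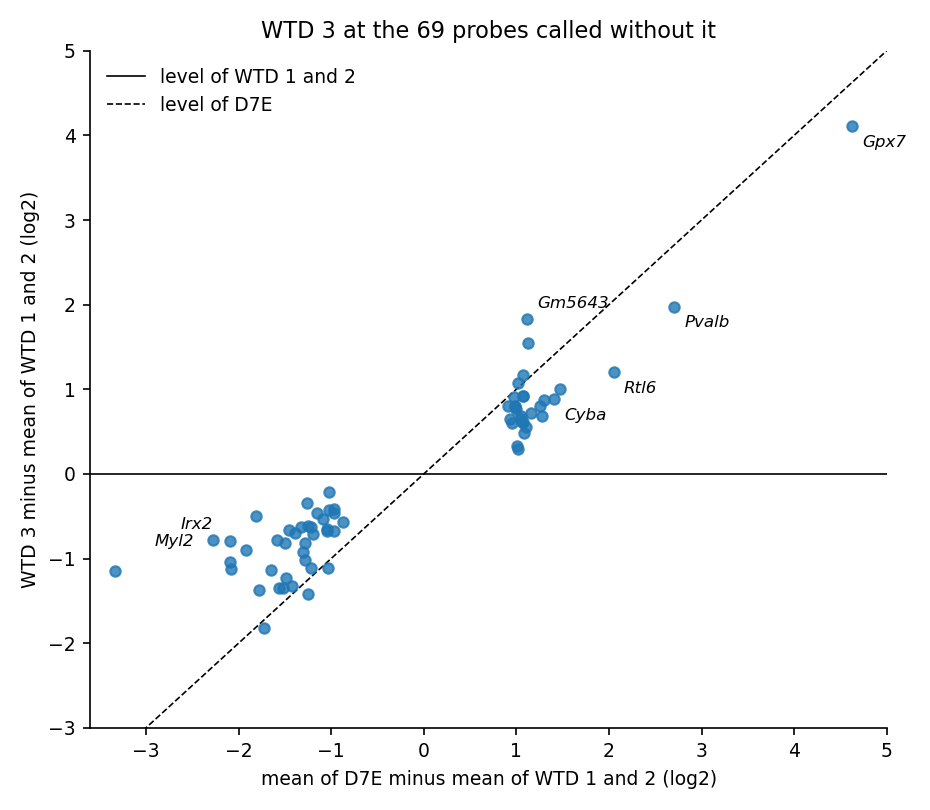
Log2 difference of WTD replicate 3 from the mean of WTD replicates 1 and 2 (vertical axis) against that of the D7E mean (horizontal axis) for the 69 probes called without WTD replicate 3. Points on the solid line would have the level of WTD replicates 1 and 2, points on the dashed line that of D7E, and 58 of the 69 probes lie between the 2 other WTD arrays and all D7E arrays.

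The genes called without WTD replicate 3 hold further transcripts of translation, the secretory route and the cytoskeleton, which were named after their values were seen. Lars2, the mitochondrial leucyl-tRNA synthetase, read 6.31 and 6.06 in WTD replicates 1 and 2, 7.11 in WTD replicate 3, 7.28, 7.22 and 7.30 in D7E, and 7.52 and 7.16 in WTA. WTD replicate 3 was thus close to D7E and WTA. Wars, the cytosolic tryptophanyl-tRNA synthetase, read 4.43 and 4.72, then 5.74, in the WTD arrays and 5.44, 5.73 and 5.77 in D7E. Sacm1l, a phosphoinositide phosphatase of the endoplasmic reticulum and Golgi, read 8.18, 8.05 and 9.02 in WTD and 9.17, 8.90 and 9.19 in D7E. Tuba1a, an alpha-tubulin, read 9.66, 9.70 and 10.76 in WTD and 10.88, 10.58 and 10.63 in D7E. Cd82, a tetraspanin of the cell surface, read 10.92, 10.93 and 10.25 in WTD, 9.71, 9.88 and 10.06 in D7E, and 10.14 and 10.08 in WTA. Exosc7, a subunit of the RNA exosome, and Fndc5, the precursor of irisin, were higher by 1.07 and 1.02 without WTD replicate 3, both past the limma threshold. On the percent scale above, WTD replicate 3 stood at 85.5% for Lars2, 109% for Wars, 93.2% for Sacm1l and 106% for Tuba1a. It stood at 64.5% for Cd82, 57.6% for Exosc7 and 28.9% for Fndc5. The median over all probes called without that array was 63.2%, with an upper quartile of 80.7%. Lars2, Wars, Sacm1l and Tuba1a thus place it further towards D7E than most of those probes do.

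Gpx7 had the largest difference of the 69 probes. It encodes a glutathione peroxidase of the endoplasmic reticulum that acts in oxidative protein folding. Its single probe read 4.42 and 4.40 in WTD replicates 1 and 2, neither above background, and 8.52 in WTD replicate 3. D7E read 8.99, 9.11 and 9.01, and WTA 8.59 and 8.73. Thus 2 of the 8 arrays lacked a detectable signal of a gene that was well expressed on the other 6. With all arrays the fitted difference was 3.25 ± 0.81 (SE; limma adjusted p = 0.302), and without WTD replicate 3 Gpx7 was at least 21.9-fold higher in D7E (limma adjusted p = 8.1e-07). The RefSeq promoter window of Gpx7, chr4:108406664-108406963 on the minus strand, is shown as that of the gene with the largest difference among the 69 probes. It holds 19 CpG dinucleotides, above the median window, and neither CCAAT nor TATAAA on either strand, so it has no capitals.
Gpx7 promoter: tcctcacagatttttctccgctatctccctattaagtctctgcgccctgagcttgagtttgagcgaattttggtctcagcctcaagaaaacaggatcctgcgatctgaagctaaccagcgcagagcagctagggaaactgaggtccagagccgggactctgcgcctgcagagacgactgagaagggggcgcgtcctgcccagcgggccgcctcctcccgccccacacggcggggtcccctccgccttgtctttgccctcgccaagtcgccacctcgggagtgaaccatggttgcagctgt

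Replication and division genes were mostly lower in D7E. Of 54 genes on a proliferation and DNA replication list, 34 were kept and 0 passed the threshold (0.00976% of all genes). Of the kept genes 25 were below 0 (51.2% of all genes were) and 9 above (48.8%), with a median of -0.26 beside -0.007 over all genes. The arrays did not overlap for 13 lower members (38.2%, beside 7.77% of all genes) and for 1 higher member (2.94%, beside 7.43%). Of the MCM2-7 helicase, which unwinds DNA at replication origins, all 6 subunits were kept and 5 were below 0. Mcm4 read 8.40, 8.49 and 8.23 in WTD, 7.43, 7.43 and 7.39 in D7E, and 7.96 and 8.01 in WTA. The 3 D7E arrays were nearly equal, and the difference was -0.95 ± 0.15 (SE; limma adjusted p = 0.0987). Mcm5 read 6.55, 6.78 and 5.74 in WTD and 5.51, 5.31 and 5.25 in D7E. Mcm6 read 6.30, 6.56 and 6.68 in WTD and 5.79, 5.73 and 5.03 in D7E, Mcm2 differed by -0.69, and Mcm7 by 0.21. The remaining subunit below 0, Mcm3, read 4.74, 4.28 and 4.45 in WTD and 4.27, 4.60 and 4.49 in D7E. Mcm3 and Mcm7 overlapped between the groups and lay near the detection limit, so their direction carries little weight. For the other 4 subunits the arrays did not overlap, all lower in D7E. Without WTD replicate 3, 3 list members had an adjusted p under 0.05, all lower in D7E (0.273% of all genes).

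The genes of mitosis named here from the same list were below 0, except Kif23. Kif23, a kinesin of the central spindle, read 7.10, 7.26 and 7.33 in WTD and 7.36, 7.43 and 7.63 in D7E and was the list's member that was higher without overlap. Aurkb, a kinase of the chromosomal passenger complex, was dim throughout, at 4.59, 4.32 and 4.54 in WTD and 4.67, 4.22 and 4.32 in D7E. Cdk1, the kinase that drives entry into mitosis, read 6.36, 6.15 and 5.97 in WTD, 5.21, 5.24 and 5.51 in D7E, and 5.69 and 5.96 in WTA. Its difference was -0.84 ± 0.17 (SE; adjusted p = 0.205). Prc1, which bundles microtubules of the central spindle, differed by -0.99 ± 0.19, and Anln, an actin-binding protein of the cleavage furrow, by -0.84 ± 0.17. Prc1 and Anln are not on the list. Cenpa, the centromeric histone H3 variant, differed by -1.01, Aurka, a spindle pole kinase, by -0.86, and Birc5 and Bub1b, of the chromosomal passenger complex and the spindle checkpoint, by -0.64 and -0.54. Ccnd1, the cyclin of G1 phase, differed by 0.31. WTA lay nearer to WTD than to D7E for Mcm4, Cdk1, Prc1 and Anln. For Mcm6 it lay nearer to D7E, with mean levels of 5.88 in WTA, 5.52 in D7E and 6.51 in WTD. In these bulk samples fewer dividing cells and less of such RNA per cell cannot be told apart.

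The RefSeq promoter window of Mcm5, chr8:75109259-75109558 on the plus strand, is shown as that of a replication gene. Capitals mark the E2F match, searched as TTTCCCGC or TTTGGCGC on both strands, and the CCAAT boxes. The E2F letters stand in 1.56% of all windows and 1 time here, and CCAAT stands here 3 times, with no overlap between the 2 motifs.
Mcm5 promoter: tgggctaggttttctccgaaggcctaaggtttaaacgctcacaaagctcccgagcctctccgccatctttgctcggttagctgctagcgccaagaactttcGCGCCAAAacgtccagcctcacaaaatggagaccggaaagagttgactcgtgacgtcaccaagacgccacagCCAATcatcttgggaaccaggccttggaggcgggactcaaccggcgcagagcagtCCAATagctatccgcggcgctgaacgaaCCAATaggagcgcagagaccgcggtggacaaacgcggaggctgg

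Histone genes divided by class. Of 42 kept histone genes 23 were below 0 and 19 above, with a median of -0.036 that turned to 0.067 relative to all genes when arrays were centred on their medians. Leaving out WTD replicate 3 gave a median of -0.015. Of the 11 kept H2A genes 10 were below 0, with a median of -0.667 (-1.036 without WTD replicate 3). The groups did not overlap for 7, all lower in D7E (7.77% of all genes). H2ac15 read 8.05, 8.07 and 7.29 in WTD and 6.23, 6.59 and 6.62 in D7E (-1.33 ± 0.22; limma adjusted p = 0.126). H2ac12 read 7.64, 7.85 and 7.09 in WTD and 6.19, 6.43 and 6.26 in D7E (-1.23 ± 0.20; adjusted p = 0.113). Of the 9 kept H2B genes 8 were above 0, with a median of 0.134, and the 7 H3 and 6 H4 genes had medians of 0.008 and 0.056. These 3 medians were 0.253, 0.14 and 0.193 without WTD replicate 3. Replication-dependent H2A genes are nearly identical in sequence, so their probes may read each other's transcripts and cannot be counted as separate measurements. These mRNAs normally end in a stem-loop and carry no poly(A) tail. Without WTD replicate 3, 5 histone genes had an adjusted p under 0.05, all lower in D7E (0.273% of all genes).

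**Figure D4:**
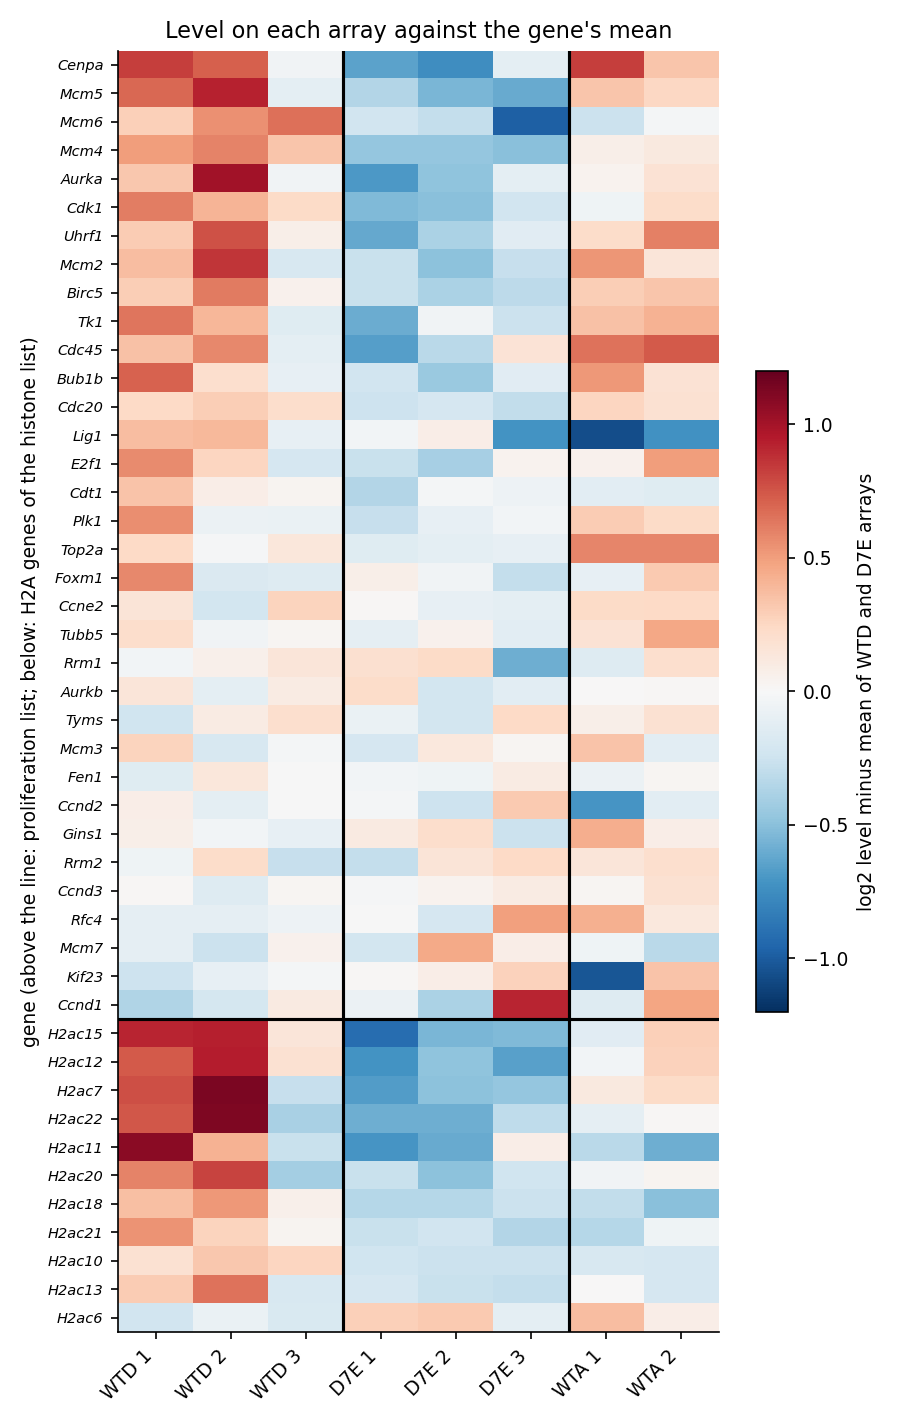
Log2 level on each array minus the mean of the 6 WTD and D7E arrays, as colour from -1.2 to 1.2, for 34 kept members of the proliferation and DNA replication list (above the black line) and 11 H2A genes (below it). The columns of WTD replicates 1 and 2 are red in the top rows and for 10 of the 11 H2A genes, the D7E columns are mostly blue there, and WTD replicate 3 is paler.

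Cell cycle inhibitors did not share a direction. Cdkn1c, which encodes the inhibitor p57 and is imprinted, read 11.33, 11.50 and 10.40 in WTD, 10.23, 10.30 and 8.24 in D7E, and 8.43 and 8.13 in WTA. D7E replicate 3 lay with WTA, and D7E replicates 1 and 2 lay just below WTD replicate 3. The difference was -1.49 ± 0.47 (SE; limma adjusted p = 0.461). Cdkn2d, which encodes the inhibitor p19, read 5.48, 4.97 and 5.56 in WTD and 6.36, 6.02 and 5.84 in D7E (0.74 ± 0.20; adjusted p = 0.358). Gadd45a, a stress-inducible p53 target, differed by 0.49 ± 0.16 (adjusted p = 0.477). Of 28 kept members of the list of inhibitors and p53 targets 17 were above 0 and 11 below. The arrays did not overlap for 5 higher members (17.9%, beside 7.43% of all genes). Cdkn1c was the 1 lower member without overlap (3.57%, beside 7.77%). Relative to all genes, with arrays centred on their medians, 20 were above 0 and 8 below.

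Contractile genes held large differences in single fibre type members. Of 53 kept sarcomere genes 29 were above 0 and 24 below, with a median of 0.038. Without WTD replicate 3 the split was 23 above and 30 below, against 48.4% and 51.6% of all genes, and the median was -0.031. In the slow fibre and cardiac list 4 of 18 kept genes were lower without overlap (22.2%, beside 7.77% of all genes) and 3 higher (16.7%, beside 7.43%). Beside Myl2, Tpm3, a slow tropomyosin, read 12.55, 12.80 and 12.51 in WTD and 12.09, 11.93 and 12.01 in D7E (-0.61 ± 0.15; limma adjusted p = 0.311). Sln, sarcolipin, a small inhibitor of the calcium pump, read 12.41, 12.22 and 11.87 in WTD and 11.64, 11.73 and 11.16 in D7E. Myl3, the slow essential light chain, differed by -0.56. On the other side Myoz2, a Z-disc protein of slow fibres, differed by 0.58 ± 0.16. The list's median, -0.05, was -0.175 without WTD replicate 3 and 0.004 relative to all genes when arrays were centred on their medians. Embryonic and perinatal isoforms had 5 of 11 kept genes above 0 and 6 below, with a median of -0.098. Without WTD replicate 3 the split was 1 above and 10 below, with a median of -0.216. Relative to all genes, with arrays centred on their medians, it was 10 above and 1 below, with 0.166.

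Pvalb, parvalbumin, which buffers calcium in fast fibres, had the largest difference of the fast fibre list. It read 8.89, 9.0 and 10.92 in WTD, 11.28, 11.18 and 12.48 in D7E, and 12.45 and 12.67 in WTA. WTD replicates 1 and 2 were the low arrays, WTD replicate 3 lay just under D7E, and D7E replicate 3 reached WTA. The difference was 2.04 ± 0.48 (SE; limma adjusted p = 0.289), and 2.70 without WTD replicate 3 (adjusted p = 0.0115). Of 19 kept fast fibre genes 13 were above 0 and 6 below. The arrays did not overlap for 2, both higher (10.5%, beside 7.43% of all genes). The others included Tmod4, a thin filament capping protein, at 0.80 ± 0.30, Mybpc2, the fast myosin-binding protein C, at 0.60 ± 0.23, and Myh4, the myosin heavy chain of type 2B fibres, at 0.54 ± 0.22, all with overlapping arrays. WTA was the highest group for Pvalb, Tmod4 and Mybpc2. Among abundant structural genes Acta1, skeletal actin, differed by -0.01 ± 0.15 and Ckm, muscle creatine kinase, by -0.16 ± 0.18.

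Regulators of muscle formation and the muscle membrane gave few separated genes. Myf6, the myogenic factor of late differentiation, read 7.41, 7.27 and 7.64 in WTD and 8.08, 8.12 and 9.02 in D7E (0.97 ± 0.24; limma adjusted p = 0.289). Myog, a factor of myoblast differentiation, read 9.37, 9.80 and 8.99 in WTD and 9.57, 9.74 and 9.45 in D7E. Msc, a repressor of myogenic factors, read 6.40, 6.43 and 5.85 in WTD and 5.51, 5.79 and 4.38 in D7E. Chrne, the adult acetylcholine receptor subunit, read 6.28, 6.58 and 5.09 in WTD, 4.79, 5.05 and 4.90 in D7E, and 5.08 and 4.80 in WTA. Its difference of -1.07 ± 0.31 had an adjusted p of 0.403 (limma), and -1.52 without WTD replicate 3 had 0.00743. The fetal subunit Chrng differed by -0.18 ± 0.16. Of the atrophy-related ubiquitin ligases, Fbxo32 differed by 0.04 ± 0.17 and Trim63 by 0.03 ± 0.18.

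Hypoxia-inducible genes outside glycolysis were mostly above 0, with 18 of 25 kept and a median of 0.225. The median was 0.306 without WTD replicate 3, 0.108 with quantile normalization alone, 0.111 with the authors' normalized values and 0.142 with offset 50, with 18 genes above 0 in each. Relative to all genes, with arrays centred on their medians, it was 0.244, with 15 above 0 and 10 below. The arrays did not overlap for 6 (24%, beside 7.43% of all genes), all higher in D7E. Fam162a, a mitochondrial protein induced by hypoxia, read 8.62, 8.29 and 8.60 in WTD, 9.47, 9.10 and 10.17 in D7E, and 9.90 and 10.05 in WTA. The difference was 1.08 ± 0.24 (SE; limma adjusted p = 0.259). Vegfa, the angiogenic growth factor, differed by 0.64 ± 0.20, with 1 of its 3 kept probes pointing the other way, Egln3, an oxygen-sensing prolyl hydroxylase, by 0.56, and Kdm3a, a histone demethylase, by 0.46 ± 0.15. Pgam1, a phosphoglycerate mutase of glycolysis, read 5.38, 5.46 and 5.89 in WTD, 6.25, 6.36 and 7.25 in D7E, and 6.52 and 7.03 in WTA. Glycolysis and glycogen genes had 22 of 34 above 0 and a median of 0.121. The mean level of the hypoxia list was 6.65 to 6.94 on WTD arrays, 6.92 to 7.31 on D7E arrays and 7.37 and 7.45 on WTA arrays, and D7E replicate 3 was the highest of the 6 compared.

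Genes of the translation machinery leaned to higher levels in D7E by small amounts. Of 72 kept mitochondrial ribosomal protein genes 55 were above 0 and 17 below, with a median of 0.121 (0.077 without WTD replicate 3). The arrays did not overlap for 16 higher (22.2%, beside 7.43% of all genes) and 2 lower (2.78%, beside 7.77%). No member passed the threshold on its brightest probe with or without WTD replicate 3. Dimmer probes of Mrps18b and Mrps25 passed without that array. Mrps27 of the small subunit read 4.27, 4.49 and 4.51 in WTD, where 1 array was above background, and 5.11, 5.22 and 5.18 in D7E (0.75 ± 0.15; limma adjusted p = 0.205). Mrpl16 of the large subunit read 6.0, 6.21 and 5.89 in WTD and 6.48, 6.62 and 6.95 in D7E (0.65 ± 0.17; adjusted p = 0.348). The small subunit had 23 of 28 genes above 0 and the large subunit 32 of 44. Cytosolic ribosomal protein genes had 35 of 50 above 0 with a median of 0.065, and oxidative phosphorylation 40 of 70 with 0.035. Translation factors had 21 of 32 above 0 with a median of 0.08. These splits depended on the scaling. Relative to all genes, with arrays centred on their medians, cytosolic ribosomal proteins had 48 of 50 above 0 with a median of 0.318. Oxidative phosphorylation then had 68 of 70 with 0.294, and translation factors 26 of 32 with 0.306.

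Chaperones showed a lean within a complex. Of 41 kept members 23 were above 0 and 18 below. The arrays did not overlap for 8, all higher in D7E (19.5%, beside 7.43% of all genes). The cytosolic chaperonin CCT, a ring that folds actin and tubulin, had 6 kept subunits, of which 5 were above 0 and 4 did not overlap. Tcp1 read 9.45, 9.43 and 9.83 in WTD and 10.09, 10.19 and 10.01 in D7E (0.53 ± 0.16; limma adjusted p = 0.459). Cct4 differed by 0.44 ± 0.16, and Cct7 by -0.22. Hspe1 and Hspd1, the partners of the mitochondrial chaperonin, differed by 0.42 and 0.24. The small heat shock protein Hspb8 differed by -0.61 ± 0.26 with overlapping arrays. Proteasome genes had 25 of 41 above 0 with a median of 0.046, and ubiquitin ligases and conjugation 26 of 53 with -0.024. In the immunoproteasome, Psmb8 read 5.92, 6.10 and 6.04 in WTD and 5.29, 5.29 and 5.57 in D7E.

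RNA processing genes, the group closest to the known role of PABPN1, did not separate. Of 27 kept poly(A) and 3' processing genes 12 were above 0 and 15 below, with a median of -0.024. The arrays did not overlap for 2, both lower (7.41%, beside 7.77% of all genes). These were Pan2, a subunit of a deadenylase that trims poly(A) tails, at -0.59 ± 0.19 (SE; limma adjusted p = 0.477, with 1 of 3 probes pointing the other way) and Exosc10, the nuclear exosome nuclease, at -0.34 ± 0.14 (adjusted p = 0.567). The splicing and hnRNP list had 16 of 37 above 0 with a median of -0.033, and 19 of 37 with 0.001 without WTD replicate 3. Hnrnpa1, an hnRNP that binds pre-mRNA, read 7.48, 7.68 and 7.31 in WTD and 7.98, 7.88 and 8.05 in D7E (0.48 ± 0.16; adjusted p = 0.477). In the nuclear pore and transport list Nup210, a pore membrane protein with a role in muscle differentiation, read 7.55, 7.56 and 7.45 in WTD, 7.01, 6.91 and 6.42 in D7E, and 8.41 and 8.35 in WTA. Both wild type groups lay above D7E.

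Signalling genes of the Notch and Wnt pathways were lower in D7E more often than higher. Of 28 kept genes 17 were below 0 and 11 above, with a median of -0.121. Without overlap, 7 were lower (25%, beside 7.77% of all genes) and 1 higher (3.57%, beside 7.43%). Wnt10a, a secreted Wnt ligand, read 6.96, 6.81 and 5.75 in WTD, 5.25, 5.17 and 5.28 in D7E, and 4.23 and 4.52 in WTA. Its difference was -1.27 ± 0.26 (SE; limma adjusted p = 0.228), and -1.65 without WTD replicate 3 (adjusted p = 0.00345). Notch3, a Notch receptor, differed by -0.44 ± 0.15. Of the 5 kept Notch target genes 4 were below 0, with Heyl at -0.74 ± 0.21, Nrarp at -0.53 ± 0.18 and Hey1 at -0.48. Axin2, a target of Wnt signalling, differed by -0.41, and Wnt5a, a ligand of noncanonical Wnt signalling, by 0.35.

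Matrix genes went both ways. Of 53 kept genes 30 were above 0 and 23 below. In each direction 8 did not overlap (15.1% each, beside 7.43% of all genes higher and 7.77% lower). The basement membrane collagens Col4a1 and Col4a2, which form a heterotrimer, were lower by 0.69 ± 0.17 and 0.60 ± 0.20. Col4a1 read 9.68, 9.54 and 9.17 in WTD and 8.89, 8.60 and 8.82 in D7E (limma adjusted p = 0.31). Thbs2, a matrix glycoprotein, read 7.02, 7.33 and 8.27 in WTD, 8.27, 8.38 and 9.27 in D7E, and 8.96 and 9.87 in WTA. WTD replicate 3 stood level with the lowest D7E array. Col3a1, of interstitial collagen, differed by 0.69 ± 0.28 and Col1a1 by 0.40 ± 0.17, both with overlapping arrays. Of TGF-beta and SRF targets 23 of 32 were below 0 with a median of -0.146, a split that turned to 13 of 32 below 0 and a median of 0.058 relative to all genes when arrays were centred on their medians. Tgfb1 read 8.12, 8.24 and 8.07 in WTD and 7.56, 7.76 and 7.15 in D7E.

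Single genes of other lists stood out by size. Mt3, a metallothionein, read 6.25, 6.83 and 5.17 in WTD and 4.75, 5.05 and 4.50 in D7E (-1.32 ± 0.33; limma adjusted p = 0.31). Gpx3, the secreted glutathione peroxidase, read 9.66, 9.63 and 9.82 in WTD, 10.24, 10.35 and 10.56 in D7E, and 11.33 and 10.92 in WTA. Irs2, an adaptor of the insulin receptor, read 5.62, 5.77 and 5.55 in WTD, 4.98, 4.74 and 5.20 in D7E, and 5.96 and 5.85 in WTA. Isg15, a ubiquitin-like protein induced by interferon, was at 4.68, 4.79 and 4.72 in WTD and not above background in D7E. Ndufb4, a complex I subunit, read 5.14, 5.10 and 5.19 in WTD and 5.79, 5.70 and 5.80 in D7E. Fabp3, a fatty acid carrier of muscle and heart, read 9.55, 9.71 and 9.32 in WTD and 8.63, 8.89 and 9.16 in D7E.

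**Figure D5:**
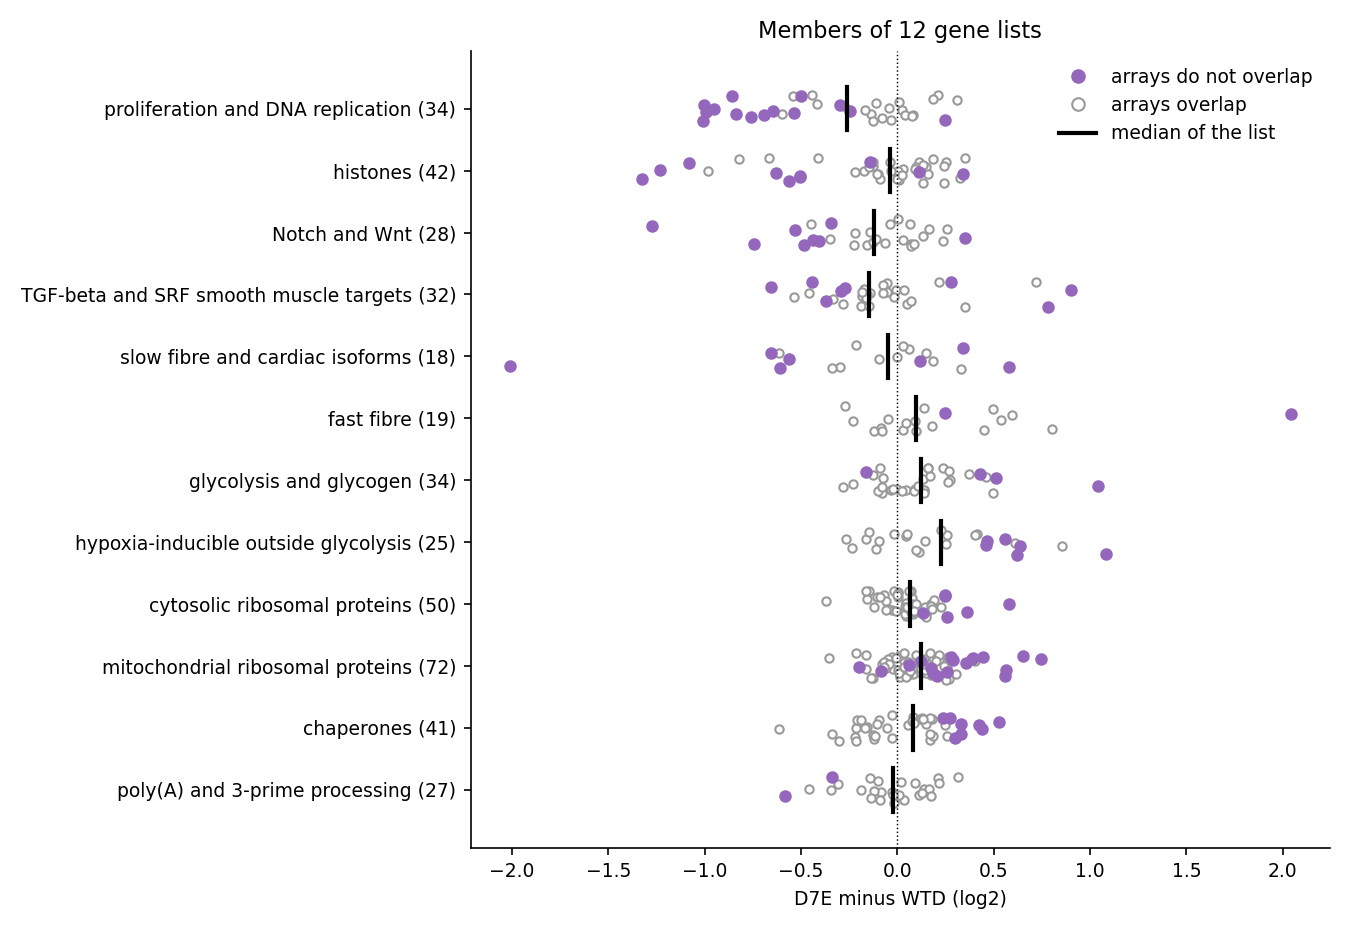
D7E minus WTD difference (log2, horizontal axis) of the kept members of 12 gene lists, with the number of members in brackets. Filled points are genes whose arrays do not overlap between the groups, open points the others, and bars the medians, which lie between -0.26 for proliferation and DNA replication and 0.225 for hypoxia-inducible genes.

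Over the 34 lists without the marker lists, 0 had a member past the threshold in either direction, and the medians ran from -0.26 to 0.225. In 25 of the 34 the median lay within 0.1 of 0 under the main scaling, a count that depends on the scaling. Relative to all genes, with arrays centred on their medians, sarcomere was at 0.211, proteasome at 0.222 and oxidative phosphorylation at 0.294. Ubiquitin ligases and conjugation, at 0.08, and the IGF axis, at -0.01, stayed within 0.1 there. Unfolded protein and stress response genes had 21 of 38 above 0 with a median of 0.032. Autophagy and lysosome genes had 20 of 38 with 0.012, and cholesterol synthesis genes 15 of 20 with 0.141. Without WTD replicate 3 these 3 medians were 0.021, 0.043 and 0.264. Interferon and antigen presentation genes had 19 of 33 below 0 with a median of -0.048. Of the 33, 6 were lower without overlap (18.2%, beside 7.77% of all genes). Without WTD replicate 3 the median was -0.136 with 22 of 33 below 0, and relative to all genes, with arrays centred on their medians, it was -0.239 with 23 of 33 below 0.

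Of the markers of other cell types, 3 lists had mean levels that did not overlap between the groups. Smooth muscle and pericyte markers had 7 of 9 kept genes below 0 with a median of -0.274, and a mean level of 7.66 to 7.79 in WTD and 7.42 to 7.57 in D7E. Des is also a myotube marker, and Myh11, Cnn1 and Kcnj8 were detected on too few arrays to be kept. Undifferentiated myoblast markers had 6 of 8 below 0 with a median of -0.233, and mean levels of 7.09 to 7.29 in WTD and 6.77 to 7.02 in D7E, while Pax7, Myf5 and Pax3 were not kept. Relative to all genes, with arrays centred on their medians, the myoblast split was 4 above and 4 below. Smooth muscle and myoblast markers thus shared the direction of the proliferation and Notch lists between the groups, and their part in those results was not tested. Within D7E the myoblast and proliferation levels did not run in parallel. The myoblast means of D7E replicates 1, 2 and 3 were 6.984, 7.017 and 6.766, and the proliferation means 5.937, 5.975 and 6.051. Heyl stands in both the Notch and the myoblast list, and Notch3 in both the Notch and the smooth muscle list, so these lists share members. Fibroblast markers had 4 of 5 above 0, with mean levels of 6.51 to 6.57 in WTD and 6.62 to 6.90 in D7E, and a median of 0.173, while Dcn, Lum and Thy1 were not kept. Their kept members Col1a1, Col3a1 and Postn also stand in the matrix list, and their part in it was not tested. Leukocyte markers had 4 of 11 kept, at mean levels of 4.40 to 4.71 in WTD and 4.48 to 4.51 in D7E, near the lowest detected level of 4.42 to 4.68 on these 6 arrays, and Ptprc was not kept. Endothelial markers had 4 of 10 kept and neural markers 2 of 8, with 1 gene, Eng, detected on every array.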

How the data were processed

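Total RNA was labelled with biotin and hybridised to Illumina mouse arrays, per the labels' protocols. The authors deposited linear signal intensities and a detection p-value per probe and array, without normalization per the file headers, and log2 normalized intensities of all samples. No source used here names the software behind them. The raw tables share their WTA arrays (100% equal values), which were used once. WTD probes were put into the order of the other table by the pair of WTA ranks, unique for all 45281 probes, of which 45281 matched and 0 kept their place, and 4 matched after 1 array was shuffled. For WTD replicates 1 and 3, detection p was estimated from 23132 probes that are background elsewhere. On the other arrays that estimate gave the deposited call for 97.3% to 98.8% of probes, calling more detected.

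The neqc function (limma 3.58.1, R 4.3.3, offset 16) corrected background and quantile normalized the 8 arrays. Probes with detection p under 0.05 on at least 2 of the 6 WTD and D7E arrays were kept (17655). Differences were tested with lmFit and eBayes (two-sided), and Benjamini-Hochberg adjusted p under 0.05 over all kept probes was the threshold. The procedure was tested on simulated data. Levels are normalized log2 intensities, differences are D7E minus WTD, and errors are SE with n = 3 arrays per group. A gene is read on its brightest kept probe (10241 genes). Of 1604 entries in 42 gene lists, 1603 matched a symbol, 1463 were on the array and 1215 were kept. Names come from the platform annotation. The lists and ranked genes were chosen with earlier results of these data known.

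Named genes are Pabpn1, up to 15 genes per direction among those past the threshold whose arrays do not overlap, filled by smallest p, the 4 list members of smallest p, and a fixed set of muscle and cell cycle genes. Where no array of a group is above background, folds are lower bounds: the bright group's mean over that of the other group, with each dim array set no lower than its lowest detected level. The alternatives were other background corrections, offset 50, median centring, the authors' values, other filters and fits, a replicate block and leaving out arrays. Slide and date are not given, so batches were not tested.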

Additional observations from a re-analysis of the deposited data

How the results depend on the processing

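The number of probes past the threshold was unstable. It was 1 (0 higher, 1 lower in D7E) with all arrays and the same with the 6 arrays normalized alone. It was 0 with quantile normalization alone, offset 50, arrays centred on their medians, the authors' normalized values, no filter on dim probes, detection on at least 3 arrays or the deposited detection p-values, where 1390 to 2938 probes had an unadjusted p under 0.05. It was 8 (all lower) with normexp without detection p-values, 5 (all lower) with all 8 arrays in the fit, 15 (4 higher, 11 lower) with a trended robust prior and 75 (33 higher, 42 lower) with array quality weights. Leaving out an array gave 0 to 69 (0 to 30 higher, 0 to 39 lower), 69 without WTD replicate 3 and 0 without any other array. Irx2 kept its direction under every alternative, from -2.09 to -0.67, with adjusted p from 0.000718 to 0.467. The signal over background limits dim genes such as Irx2, whose difference shrinks with a larger offset (-0.96 with offset 50) by construction.

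The replicate numbers did not pair the samples: deviations of same-numbered WTD and D7E arrays correlated at -0.023, -0.032 and -0.098. With the replicate block 6 probes passed (1 higher, 5 lower).

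Centring on medians moved all genes by 0.486, and values under it are given relative to that shift. List medians then were 0.369 for fast fibre, -0.545 for proliferation, 0.067 for histones, 0.341 for mitochondrial ribosomal proteins, 0.058 for TGF-beta and SRF targets and -0.239 for Notch and Wnt. With quantile normalization alone the medians of proliferation, TGF-beta and SRF, and Notch and Wnt were -0.103, -0.075 and -0.039, with the authors' values -0.102, -0.074 and -0.04, and with offset 50 proliferation was -0.126. The hypoxia and glycolysis medians, 0.225 and 0.121, were 0.108 and 0.052 with quantile normalization alone. The poly(A) and splicing medians turned to 0.064 and 0.16 with centring. Leaving out an array gave slow fibre medians from -0.175 (without WTD replicate 3) to -0.047, and Notch and Wnt medians from -0.156 to -0.035 (without WTD replicate 1). The cause of these shifts was not tested.

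Some named genes changed sign, none of them past the threshold with all arrays. With centring these were Exosc3 (-0.17), Cdh15 (0.066), Chrng (0.087), Dag1 (0.037), Erbb2 (0.033), Ak4 (-0.012), Syvn1 (0.037), Itga7 (0.018), Postn (-0.28), Pparg (-0.25), Cd14 (-0.32), Csf1r (-0.44), Vwf (-0.28), Mbp (-0.30), Acta1 (0.29) and Ckm (0.12). With array weights Postn was -0.016 and Trim63 -0.0072, and with offset 50 Lep was 0.0032. Leaving out an array gave Postn from -0.049 to 0.30, Adipoq from -0.28 to 0.076, Lep from -0.19 to 0.16, Aif1 from -0.43 to 0.024, Csf1r from -0.095 to 0.10, Eng from -0.018 to 0.28, Tek from -0.13 to 0.14, Map2 from -0.20 to 0.10, Acta1 from -0.041 to 0.061, Fbxo32 from -0.094 to 0.14 and Trim63 from -0.084 to 0.16.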
